A study of Mus musculus with 4 samples.

Results

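Aspa and 4 olfactory receptor genes that lie beside it on mouse chromosome 11 (Olfr376, Olfr389, Olfr390 and Olfr392) were followed in embryonic stem (ES) cells depleted of Rif1. The genes were chosen by their levels in these same data, as genes of one neighborhood that were higher on the Rif1 siRNA arrays. Their differences between those arrays and the controls are therefore a description and not a finding. All non-control probes carrying the 5 gene names were taken, which gave 5 probes for 5 genes among 39429 probes for 30199 gene names on the array. All 5 probes passed the filter on low signals. The 4 receptor probes were well above background on the Rif1 siRNA arrays only, so their passing may rest on those arrays.

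Total RNA from the mouse ES cell line E14tg2a, grown with leukemia inhibitory factor, was labeled with Cy3 and hybridized to 4 Agilent arrays. The groups were untreated cells (0 h), cells that received control siRNA and were harvested at 72 h, and cells that received Rif1 siRNA and were harvested at 48 h or at 72 h. Per the methods, Rif1 was targeted by a pair of Rif1 siRNAs given together. Each group had 1 array, so no difference has a replicate check or a test, and there was no control siRNA array at 48 h. The expression level is the processed signal of a probe divided by the 75th percentile of its array. The share of probes well above background was 58.2% without treatment and 62.2% after control siRNA, and it was higher after Rif1 siRNA, at 70.9% (48 h) and 73.5% (72 h). Rif1 itself, read by 1 probe, stood at a level of 5.55 without treatment and 5.42 after control siRNA, and at 2.15 (48 h) and 4.15 (72 h) after its own siRNA. It was lower than with control siRNA at both times, by a log2 difference of -1.34 at 48 h and of only -0.39 at 72 h.

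Aspa encodes aspartoacylase, which splits N-acetylaspartate into acetate and aspartate. It is known above all from oligodendrocytes, the myelin-forming cells of the brain, and loss of the enzyme in humans causes Canavan disease. Olfactory receptors are G protein-coupled receptors of sensory neurons in the nose, and their genes, most with their coding sequence in a single exon, lie in large clusters on many chromosomes. Each mature sensory neuron settles on a single receptor gene, while the rest of the family stays silent. ES cells are not a cell type in which either group of genes is known to work. Cultures of ES cells do hold rare cells with transcripts of the 2-cell embryo (2C genes, such as Zscan4c).

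The probes decide what each measurement can mean, since receptor genes resemble each other. Each probe is 60 bases long and was printed as 1 spot per array, and its mm9 position is the one in the array files. The sequences are shown 5′ to 3′ on the strand of the probe, and capitals mark the longest stretch of 16 or more bases that the probe shares with another probe of the array. The Olfr75-ps1 probe is shown because it carries the longest such stretch.
Aspa (chr11:73119051-73119110, minus strand): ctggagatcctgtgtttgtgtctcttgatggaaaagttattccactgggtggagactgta
Olfr376 (chr11:73189147-73189206, plus strand): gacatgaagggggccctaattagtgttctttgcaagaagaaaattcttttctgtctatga
Olfr389 (chr11:73589971-73590030, minus strand): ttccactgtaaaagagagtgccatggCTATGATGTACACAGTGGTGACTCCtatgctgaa
Olfr390 (chr11:73601290-73601349, plus strand): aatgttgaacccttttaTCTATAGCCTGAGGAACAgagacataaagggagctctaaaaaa
Olfr392 (chr11:73627712-73627771, minus strand): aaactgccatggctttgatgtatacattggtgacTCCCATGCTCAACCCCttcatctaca
Olfr75-ps1 (no mm9 position in the array files): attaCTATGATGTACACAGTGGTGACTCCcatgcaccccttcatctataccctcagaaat

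The Aspa and Olfr376 probes shared no stretch of 16 bases with any other probe. The Olfr376 probe ends in tga, a stop codon, and the frame that ends there holds no earlier stop. The Olfr389 probe shared 25 bases with the Olfr75-ps1 probe and 16 with a Tmem91 probe. The Olfr390 probe shared 18 bases with probes of Olfr1489 and Olfr847, 17 with Olfr919 and 16 with Olfr846. The Olfr392 probe shared 16 bases with probes of Olfr141 and Olfr351. Among the 5 genes themselves, the longest unbroken stretch that a pair of probes shared was 10 bases, between Olfr389 and Olfr392. Only unbroken stretches were counted, and these probes are more alike than that length tells. From tgccatggct to the end of the Olfr389 probe, the printed sequences differ only at scattered single bases. Whether both probes read the same transcript was not tested. Only probe sequences were compared. Transcripts that the array does not cover, and exons or UTRs, were not analyzed here.

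Aspa was the only one of the 5 genes that was well above background on all 4 arrays. Untreated cells gave a level of 0.0573 ± 0.00846 and control siRNA cells one of 0.0582 ± 0.00713, while Rif1 siRNA gave 0.128 ± 0.0129 (48 h) and 0.121 ± 0.0122 (72 h), where the error is the one that the scanner software assigned to the spot. The untreated and control siRNA arrays lay within that error of each other, and so did both Rif1 siRNA arrays, which lay above the other pair. Against control siRNA the difference was 1.05 on the log2 scale at 72 h, with a propagated software error of 0.23, and 1.14 at 48 h. These are 2.07-fold and 2.20-fold. In RNA from a whole culture, more cells with a transcript and more RNA per cell cannot be told apart. Aspa was thus just past the 2-fold threshold at both times, but with normexp background correction it fell short of it at both, at 0.58 (72 h) and 0.63 (48 h), and with quantile normalization at 72 h, at 0.97. Between control siRNA and untreated cells the log2 difference was 0.02. For scale, the SD of the log2 difference between those arrays was 0.34 over the 4917 measured probes with a control siRNA level within 2-fold of that of Aspa, which is not a replicate error. Of 5421 probes at such a level that were measured at 72 h, 3.98% were over 2-fold higher with Rif1 siRNA, and 4.59% were at 48 h.

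The 4 receptor probes were dim, that is, not well above background, on the untreated and control siRNA arrays and bright on both Rif1 siRNA arrays. A dim signal gives only a bound. It was therefore replaced by a floor, which is the faintest level that counted as well above background on its array, unless its own level was higher, and the fold change is a lower bound. This floor was 0.0236 for the untreated array and 0.0159 for the control siRNA array, but 0.00779 (48 h) and 0.00543 (72 h) for the others, so that the Rif1 siRNA arrays could read dimmer probes than the others. The levels of the 4 receptor genes on the Rif1 siRNA arrays were also above the higher floors of the other arrays.

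The level of Olfr376 was 0.655 ± 0.0655 at 48 h and 0.814 ± 0.0815 at 72 h of Rif1 siRNA, against dim signals of 0.0109 in untreated cells and 0.0186 with control siRNA. It was at least 43.7-fold higher than with control siRNA at 72 h and at least 35.1-fold higher at 48 h. These bounds depend on the background correction, and with normexp (offset of 50) the log2 difference was 3.50 at 72 h and 3.19 at 48 h, against 5.45 and 5.14 here. The signal of the Olfr376 probe stood above that of 73.6% of all probes of the 72 h array, an order of signals and not of RNA amounts. Against the untreated array, the log2 bound was 5.11 at 72 h and 4.80 at 48 h, so that the choice of control did not alter the order of the arrays.

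Olfr392 was dim at 0.0204 in untreated cells and at 0.0208 with control siRNA, and its level was 0.146 ± 0.0148 at 48 h and 0.187 ± 0.0187 at 72 h. It was at least 8.98-fold higher than with control siRNA at 72 h and at least 7.02-fold higher at 48 h. Olfr389 lies 37.7 kb from it by probe position and on the same strand. Its dim signals were 0.00651 in untreated cells and 0.00430 with control siRNA, and its level was 0.0806 ± 0.00833 at 48 h and 0.104 ± 0.0106 at 72 h. The bounds were 6.56-fold at 72 h and 5.08-fold at 48 h. Both genes thus went from dim to bright, like Olfr376. With normexp their log2 differences were lower, at 1.71 (72 h) and 1.44 (48 h) for Olfr392 and at 1.22 and 1.01 for Olfr389.

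Olfr390 lies between these genes and on the other strand. Its dim signals were 0.00681 in untreated cells and 0.00456 with control siRNA, and its level was 0.0435 ± 0.00488 at 48 h and 0.0586 ± 0.00613 at 72 h. The bounds against control siRNA were 3.69-fold at 72 h and 2.74-fold at 48 h. Against the untreated array, whose floor is higher, its log2 bound at 48 h was 0.88 and did not reach 2-fold. Its levels were low, and with normexp the log2 difference was 0.65 at 72 h and 0.41 at 48 h.

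All 5 probes were therefore over 2-fold higher with Rif1 siRNA than with control siRNA at both times, which restates how they were chosen. Over all 27758 probes that passed the filter, 2.82% were over 2-fold higher at 72 h and 3.16% at 48 h, lower bounds included. Between control siRNA and untreated cells, 0 of the 5 were over 2-fold apart, and 4 of the 5 had no fold because both signals were dim, beside 1.61% of all probes in either direction. Both comparisons with Rif1 siRNA share the control siRNA array.

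**Figure D1:**
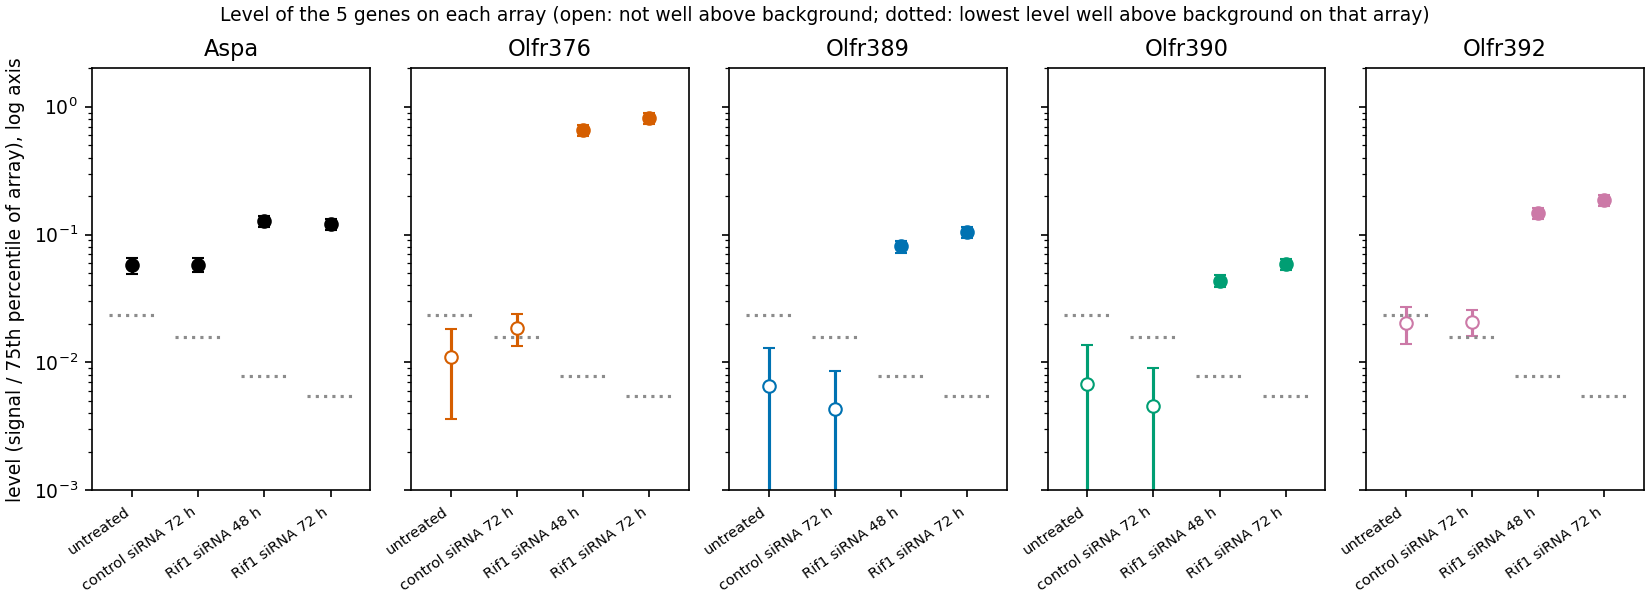
Level of Aspa, Olfr376, Olfr389, Olfr390 and Olfr392 (processed signal over the 75th percentile, log axis) on each of the 4 arrays, with the error that the scanner software gives; open points are not well above background and dotted lines mark the floor of each array. Each gene was higher on both Rif1 siRNA arrays than on the other arrays, from 0.121 to 0.128 for Aspa and from 0.655 to 0.814 for Olfr376, and the 4 receptor genes were dim on the untreated and control siRNA arrays.

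The Rif1 siRNA arrays, both of which the choice had used, were also compared with each other, and here all 5 probes were measured. The 4 receptor genes were higher at 72 h than at 48 h, by log2 differences of 0.31 for Olfr376, 0.35 for Olfr392, 0.37 for Olfr389 and 0.43 for Olfr390. The software error of these differences was 0.20 to 0.22. Aspa differed by -0.08, less than its error. None of the 5 passed 2-fold, and 1.17% of all probes did, in either direction. The Olfr75-ps1 probe printed above, which was not chosen, was higher at 72 h by 0.34. The level of the Rif1 probe was also higher at 72 h, 1.93-fold that at 48 h. Whether differences of this size would recur in other cultures cannot be told from 1 array at each time.

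The genes around the 5 probes were examined in a window of 2 Mb of mm9 chromosome 11, which held 67 other probes of 54 gene names. Against control siRNA, 31 of the 67 had a value at 72 h and 33 at 48 h, and the others had none, since both signals were dim or the bound was under 1-fold. None had a measured value or bound past 2-fold at 72 h, and 2 did at 48 h. These were Olfr59, with a level of 0.0330 at 48 h and 0.0137 at 72 h, and a probe of Olfr411 that was bright at 48 h only. The 24 probes before Aspa belonged to no olfactory receptor gene, but to others, among them Camkk1, Gsg2, Emc6, Ctns, Trpv1 and Trpv3. Of these, 20 had a value at 72 h, from -0.47 for Trpv1, a heat-gated ion channel, to 0.88 for 1 of the 3 probes of 1200014J11Rik. The other 2 probes of that gene had log2 differences of 0.00 and 0.03.

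For the genes closest to Aspa the data gave no fold or only a bound. The Trpv3 probe, at -8.41 kb from the Aspa probe, was dim on all 4 arrays. Spata22, a gene of meiosis whose probe lies at 40.4 kb on the other side, was dim in untreated and control siRNA cells, with levels of 0.0264 at 48 h and 0.0246 at 72 h. It was at least 1.48-fold higher than with control siRNA at 72 h and at least 1.60-fold at 48 h. Olfr376 follows at 70.1 kb, after Olfr20, which was dim on all 4 arrays. Between Olfr376 and Olfr389, at 471 kb, lay 9 probes, 8 of them for receptor genes, and 6 of the 9 were dim on every array. Of these 9, the Olfr382 probe alone had a value at 72 h, a bound of 1.30-fold.

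The closest contrast was Olfr391-ps, whose probe lies at 494 kb, between those of Olfr390 and Olfr392. It was bright on all 4 arrays, with levels of 0.0418 in untreated and 0.0397 in control siRNA cells, 0.0372 at 48 h and 0.0461 at 72 h. Its log2 difference from control siRNA was 0.22 at 72 h. Between the Rif1 siRNA arrays it was higher at 72 h by 0.31, as was Olfr376. It thus differed little from control siRNA while the probes on either side went from dim to bright. Olfr393, next to Olfr392, was dim on every array. Of the 31 probes beyond Olfr392, 15 were dim on all 4 arrays.

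**Figure D2:**
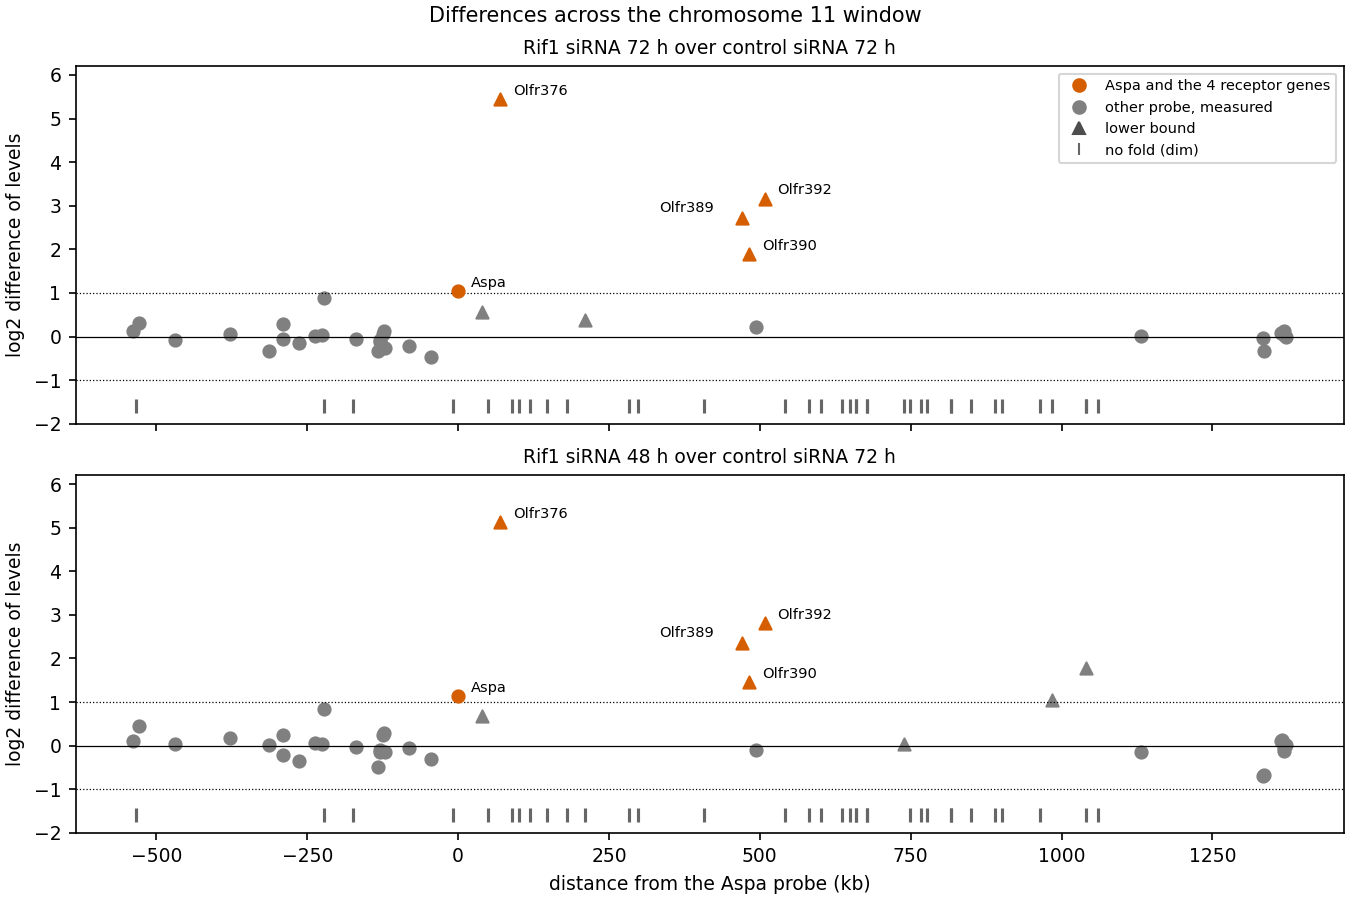
Log2 difference of levels between Rif1 siRNA (72 h above, 48 h below) and control siRNA for all 72 probes of the window, against the distance from the Aspa probe in kb; circles are measured values, triangles are lower bounds, ticks at the bottom are probes without a fold, and dotted lines mark 2-fold. Aspa and the 4 receptor genes stand at 1.05 or above at 72 h in 3 separate places, and the probes between them have no fold, a bound of at most 0.57 (Spata22) or a measured 0.22 (Olfr391-ps).

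The synonyms in the RefSeq gene table place all 4 receptor genes in the subfamily MOR135, which was noticed after the values were seen. The choice by position fixed this, since the receptor probes from Aspa to Olfr392 are all of MOR135 genes, that of Olfr391-ps by an older name of Olfr391. The table holds 27 MOR135 genes, 26 of them on chromosome 11, and the array reads 20 of them with 22 probes. Of these 22 probes, 12 were dim on all 4 arrays. A probe was over 2-fold higher with Rif1 siRNA at both times for 5 of the 20 genes, namely the 4 genes chosen and Olfr75-ps1. At each time these were 22.7% of the 22 probes, beside 2.11% of all 39429 probes at 72 h and 2.39% at 48 h. The choice of the 4 genes fixed most of this count, and outside them only Olfr75-ps1 added to it. The Olfr75-ps1 probe printed above had levels of 0.0781 in untreated and 0.0780 in control siRNA cells, 0.361 at 48 h and 0.456 at 72 h. Its log2 difference was 2.55 at 72 h and 2.21 at 48 h, measured on both sides. The other probe of the same gene, which lies between Olfr1 and Olfr378 in the cluster, was dim on all arrays but that of 72 h, where its level was 0.00770. Since the printed probe shares 25 bases with the Olfr389 probe and has no mapped place, the transcript that it reads is uncertain. The part of shared sequence in the signals was not tested. The Olfr351 probe, which shares 16 bases with that of Olfr392, was dim in untreated and control siRNA cells and bright at 0.0830 at 48 h and 0.0463 at 72 h, at least 5.23-fold and 2.92-fold above control siRNA. The Olfr141 probe was at 0.0188 and 0.0169 on those arrays and dim on the others. The probes that share 16 to 18 bases with Olfr390 were dim on all 4 arrays. The Tmem91 probe was at 0.0589 in untreated and 0.0480 in control siRNA cells, 0.0469 at 48 h and 0.0675 at 72 h.

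The region in front of the genes was compared as well. The RefSeq promoter table (GRCm38.p6, from 250 bases before to 50 after the annotated start) holds 4 of the 5 genes, Olfr376 excepted. Where a receptor gene is annotated by its coding exon alone, such a window need not contain the true start of transcription. The windows of Olfr389 and Olfr392 are printed because they share a long stretch, with the 57 bases that they share without a break in capitals. The window of Aspa is printed with its matches to TATAAA in capitals.
Olfr389 (chr11:73780540-73780839, minus strand): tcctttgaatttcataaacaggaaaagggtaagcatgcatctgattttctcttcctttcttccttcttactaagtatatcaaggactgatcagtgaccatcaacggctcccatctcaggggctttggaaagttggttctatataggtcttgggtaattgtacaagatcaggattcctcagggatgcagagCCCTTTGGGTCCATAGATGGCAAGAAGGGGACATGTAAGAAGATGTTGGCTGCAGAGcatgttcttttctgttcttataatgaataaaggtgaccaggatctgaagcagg
Olfr392 (chr11:73816828-73817127, minus strand): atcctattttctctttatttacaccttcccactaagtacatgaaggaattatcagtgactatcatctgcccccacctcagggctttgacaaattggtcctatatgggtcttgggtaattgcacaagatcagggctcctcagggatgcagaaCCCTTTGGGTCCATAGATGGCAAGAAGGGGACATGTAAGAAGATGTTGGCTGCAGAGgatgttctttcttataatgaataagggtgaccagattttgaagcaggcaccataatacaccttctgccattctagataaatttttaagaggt
Aspa (chr11:73324588-73324887, minus strand): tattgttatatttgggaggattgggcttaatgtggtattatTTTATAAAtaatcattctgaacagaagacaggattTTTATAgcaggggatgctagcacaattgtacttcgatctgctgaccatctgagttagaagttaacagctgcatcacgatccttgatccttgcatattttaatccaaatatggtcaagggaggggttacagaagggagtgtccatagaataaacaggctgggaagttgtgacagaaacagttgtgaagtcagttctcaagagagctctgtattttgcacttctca

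The windows of Olfr389 and Olfr392 had 223 identical bases among 255 aligned. Their identity was 85.1% where they overlap, with inner gaps counted as differences and unaligned ends left out, and 64.6% with the ends counted too. By the first measure, the median of the 136 pairs formed by Aspa and the 16 MOR135 genes with a window on chromosome 11 was 47.9%. The other pairs among the 4 genes with a window were 41.5% (Olfr389 and Olfr390) to 46.8% identical. All were below that median, and the lowest of them was the lowest of the 136. Olfr380 and Olfr381 had 248 identical bases among 297 aligned, an identity of 82.1% by the first measure and 81.8% with the ends counted, and both of their probes were dim on all 4 arrays. Alike windows were found for a pair that was bright with Rif1 siRNA and for a pair that was dim throughout. The part of the windows in the levels was not tested.

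The 4 windows were searched on both strands for 5 short motifs. GATTNAATC, the core of the motif of Dux, an activator of 2C genes, was in none of them and is in 0.268% of the 32851 promoters of the table and 0.738% of the 948 windows of receptor genes. TGCACAC, bound by Zscan4, was in none (4.40% of all and 1.69% of receptor windows), nor was CCCNNGGG, read by the Ebf factors of olfactory neurons (13.7% and 3.06%). TAATTA, a homeodomain site found in front of many receptor genes, was in none either, beside 5.29% of all promoters and 18.6% of those of receptor genes. TATAAA was matched in the Aspa window only, at -209, -207 and -174 from the start, the first and second match overlapping. It is in 13.6% of all promoters and in 41.0% of those of receptor genes. A missing match says only that these letters are not in this window.

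To see how the 4 receptor genes compare with their family, all 1193 probes for 1098 olfactory receptor genes were examined. Outside the 4, 820 of the 1189 probes were dim on all 4 arrays. With Rif1 siRNA, 21 of the 1189 lay more than 2-fold above control siRNA at 72 h and 29 more than 2-fold below it (1.77% and 2.44%, beside 2.11% and 1.14% of all 39429 probes), and 22 were higher and 29 lower at 48 h. Only 11 were higher at both times. Among probes that passed the filter, which a receptor probe could do through the Rif1 siRNA arrays alone, 17 of 235 were higher at 72 h (7.23%) and 5 lower (2.13%), beside 2.82% and 1.00% of all that passed, so that the order of the shares of higher probes depends on the filter. Receptor probes were bright in 8.80% of cases on the untreated array, 12.2% with control siRNA, 21.2% at 48 h and 25.6% at 72 h, while other probes were bright in 59.7% of cases on the untreated array and 63.8% on the control siRNA array, and likewise more often on the Rif1 siRNA arrays. Some receptor probes stood out on a single array. Over the other 3 arrays, 20 were more than 2-fold higher in untreated cells alone, 14 with control siRNA alone, 5 at 48 h alone and 4 at 72 h alone, while over all probes these counts were 364, 170, 80 and 64. The counts are not like for like, because dim signals were set to the floors here too. A probe of a Rif1 siRNA array had to clear the untreated floor of 0.0236, the highest of all. The Rif1 siRNA arrays also share a treatment.

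A stricter pattern is that both Rif1 siRNA arrays lie over 2-fold above both other arrays. Olfr376, Olfr389 and Olfr392 met it, as did Aspa, whereas Olfr390 missed it because of the high floor of the untreated array. It was met by 10 of the 1189 other receptor probes (0.841%) and by 506 of all 39429 probes (1.28%). All of these probes passed the filter, and over probes that passed the shares were 4.26% of 235 and 1.82% of 27758. The 10 were probes of Olfr75-ps1, Olfr713, Olfr871, Olfr850, Olfr329-ps, Olfr150, Olfr118, Olfr121, Olfr983 and Olfr881. Apart from Olfr75-ps1 and Olfr329-ps, they lie on other chromosomes. Olfr713 on chromosome 7 had levels of 0.0124 (dim) in untreated and 0.0183 in control siRNA cells, 0.263 at 48 h and 0.357 at 72 h, a log2 difference of 4.28 at 72 h. Olfr871 on chromosome 9 was dim in untreated and control siRNA cells, at 0.132 at 48 h and at 0.196 at 72 h, with a bound of 12.3-fold. Olfr850, also on chromosome 9, was dim in untreated and control siRNA cells and at 0.0906 at 48 h and 0.124 at 72 h, at least 7.83-fold above control siRNA at 72 h.

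Among the other receptor genes over 2-fold higher in either Rif1 siRNA comparison, some of those with the highest levels at 72 h did not show this on both arrays. Olfr168 was at 0.0904 at 72 h but at 0.0273 both in untreated cells and at 48 h. Olfr906 and Olfr1333 were bright at 72 h only, at 0.0805 and 0.0771. These genes show how far a low receptor signal can differ between arrays without the pattern of the 4 genes.

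**Figure D3:**
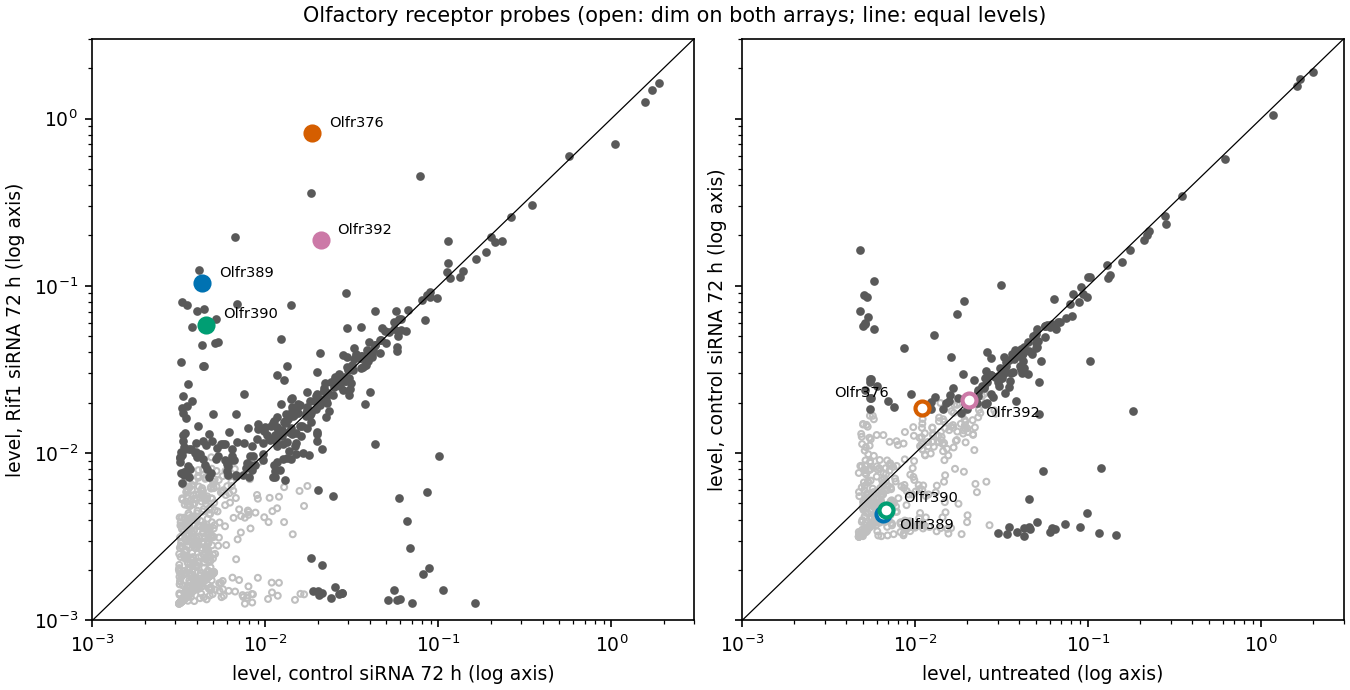
Levels of the 1193 olfactory receptor probes on log axes, Rif1 siRNA 72 h against control siRNA (left) and control siRNA against untreated cells (right); open points are dim on both arrays and the line marks equal levels. Olfr376 reaches 0.814 on the left and lies far above the line, with Olfr392, Olfr389 and Olfr390 below it at 0.187, 0.104 and 0.0586, while on the right all 4 are dim.

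The genes that act with Aspa were then examined, from a list of 13 genes of N-acetylaspartate metabolism read by 16 probes. None of the 16 had a measured value or bound past 2-fold against control siRNA at either time. The median of the 13 measured probes was -0.08 at 72 h, beside -0.07 over all measured probes. Nat8l, which makes N-acetylaspartate, had levels of 0.0968 in untreated and 0.109 in control siRNA cells, 0.0998 at 48 h and 0.0915 at 72 h. Its log2 difference at 72 h was -0.26. Got1 and Got2, aminotransferases that form aspartate, were at -0.13 and -0.14. The highest values were those of the 3 probes of Rimklb, a synthetase of N-acetylaspartylglutamate, at 0.54 to 0.63 at 72 h and 0.75 to 0.89 at 48 h. Acss2, which turns acetate into acetyl-CoA, was at -0.18 and -0.12 for its 2 probes. No listed gene of the pathway thus went past 2-fold with Aspa.

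The same was seen for olfactory signaling. Of 18 genes read by 22 probes, none had a value or bound past 2-fold at either time. Their measured values at 72 h ran from -0.64 to 0.25, with a median of -0.10. Cnga2, a subunit of the channel that the odor signal opens, was lowest, with levels of 0.0451 in untreated and 0.0622 in control siRNA cells, 0.0342 at 48 h and 0.0399 at 72 h. Adcy3, the adenylyl cyclase of the cascade, was at 0.07 on the log2 scale at 72 h. Ldb1 and Lhx2, which work together at receptor gene enhancers in neurons, were at -0.41 and 0.25. Rtp1, which helps receptors reach the cell surface, was bright in untreated cells at 0.0821, dim with control siRNA, and bright at 0.0129 at 48 h and 0.0178 at 72 h, where the bound over control siRNA was 1.12-fold.

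Markers of cell types that express these genes were checked too. Of 7 probes for markers of olfactory sensory neurons, 13 for oligodendrocytes and 8 for the kidney proximal tubule, none had a value or bound past 2-fold against control siRNA at 48 h or at 72 h. The summed level of the neuron markers was 0.951, 1.02, 0.927 and 0.914 in untreated cells, control siRNA, 48 h and 72 h. That of the oligodendrocyte markers was 1.85, 2.03, 1.93 and 2.10, and that of the tubule markers was 4.31, 3.36, 3.57 and 2.90. Among the neuron markers, the Stoml3 probe was dim on all 4 arrays. The probes of Omp, Gng13, Adcy3 and Cnga2 were bright on all 4. Omp, for example, was at 0.303, 0.355, 0.286 and 0.291 in the same order of arrays. The ES cell markers were present, as the label states. The differences of their 12 probes at 72 h lay between -0.69 (the dimmest of the Nanog probes) and 0.59 (Pou5f1) on the log2 scale, and none passed 2-fold.

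The 2C genes moved in the same arrays as the 5 genes. Of the 12 genes listed, 11 were on the array with 18 probes, and 16 of the 18 were over 2-fold higher at both times. Their summed level was 14.6 in untreated and 25.3 in control siRNA cells, 324 at 48 h and 371 at 72 h. Between control siRNA and untreated cells 6 of the 18 probes were over 2-fold higher, with a median log2 difference of 0.93 over the measured probes. The Aspa probe differed by 0.02 there, with a software error of 0.28, and the receptor probes had no value. This does not set Aspa apart from the 2C genes. Its rise over control siRNA at 72 h was also far smaller, at 1.05 beside a 2C median of 4.44. Both probes that did not pass 2-fold with Rif1 siRNA belonged to genes whose other probe did, 1 of Zfp352 at 0.12 and 1 of Usp17la at 0.44 on the log2 scale at 72 h. For Zfp352 the unmoved probe was the brighter, at 4.13 with control siRNA and 4.48 at 72 h. Its other probe went from dim to 0.421 at 72 h, so the probes of this gene disagree. The part of the 2C genes in the levels of Aspa and the receptor genes was not tested.

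**Figure D4:**
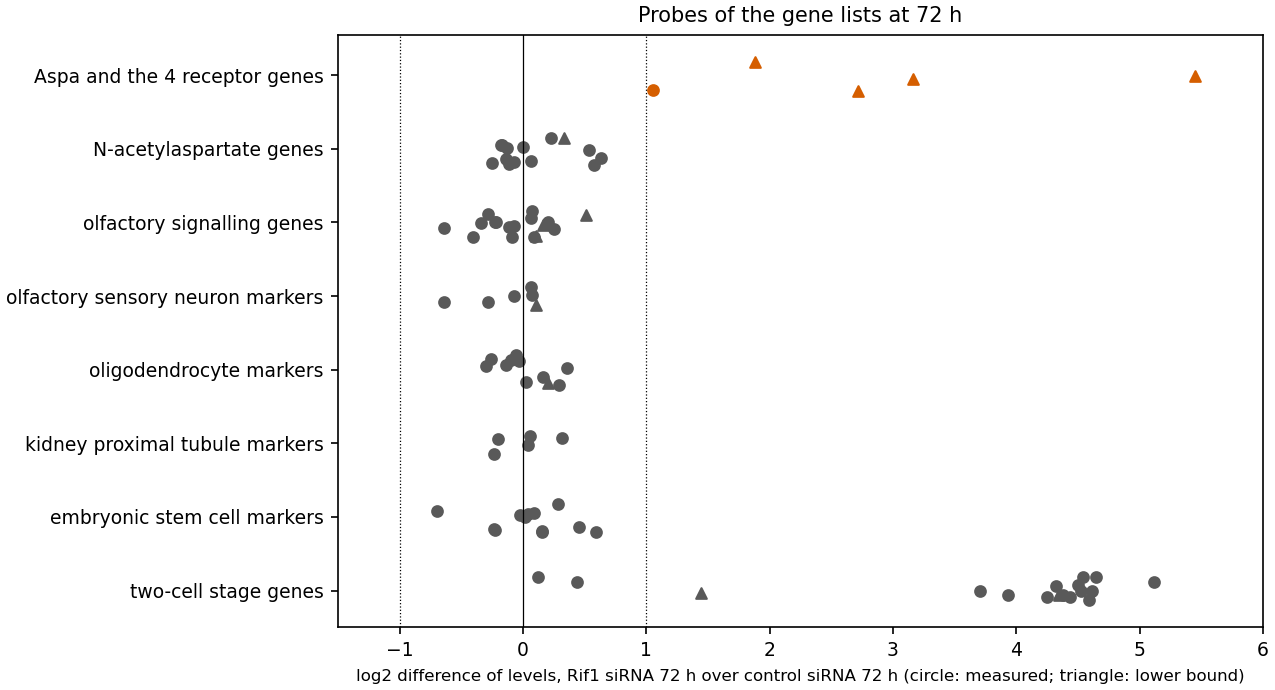
Log2 difference of levels between Rif1 siRNA and control siRNA at 72 h for the probes of each gene list; circles are measured values, triangles are lower bounds and dotted lines mark 2-fold. The probes of the N-acetylaspartate, olfactory and marker lists lie between -0.69 and 0.63, while 16 of the 18 probes of the 2C genes and all of the 5 chosen genes lie past 2-fold.

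The genes whose pattern was most like that of Olfr376 were found by the distance between log2 levels over the 4 arrays, each centered on its mean, among 3129 probes that passed the filter and were bright on the same arrays. The closest was a probe without a gene name on chromosome X, at a distance of 0.21, with levels of 0.0113 and 0.0208 (dim) in untreated and control siRNA cells and of 0.665 and 0.742 at 48 h and 72 h. It was followed by B020004J07Rik on chromosome 4 at 0.23, AA691150 on chromosome 13 at 0.28, Tdpoz4 on chromosome 3 at 0.34 and Clec10a on chromosome 11 at 0.44. By the same measure Olfr389 was at 1.84, Olfr390 at 2.67, Olfr392 at 2.73 and Aspa at 4.61. All these distances take the dim signals of the untreated and control siRNA arrays as given, so they are not exact. They fix no order among the genes, since a dim signal gives only a bound. By the lower bounds at 72 h, Olfr392 (8.98-fold) and not Olfr389 (6.56-fold) was the nearer to Olfr376 (43.7-fold).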

How the data were processed

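RNA of 1 culture sample per condition was measured on 4 arrays. The authors deposited the output of Agilent Feature Extraction (version 11.5.1.1 per the processing notes), whose processed signal is an intensity after background subtraction and detrending, with mm9 positions. The authors also deposited a value table, in which each signal is a ratio whose denominator is the 75th percentile of the array. The members and gene lists were chosen with earlier results of these data known.

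Levels were the processed signal divided by the 75th percentile over 43020 non-control spots, and differences were taken between their log2 values. Outlier spots (120 to 152 per array) were left out, repeated spots were averaged, and 0 spots were saturated. The filter kept probes at or above the 20th percentile on an array and detected on at least 2 of the 4. A probe was well above background when a share of at least 0.5 of its spots were. With 1 array per group no test was made, and precision is limited by how few arrays there are. Named besides the members were Rif1, neighbors past 2-fold, listed genes, up to 10 other receptor genes over 2-fold higher with Rif1 siRNA, by their level at 72 h, and the 5 genes most like Olfr376. Genes named beyond these, such as close neighbors, were picked after their values were seen. RefSeq tables (GRCm38.p6) gave synonyms for all 5 genes and promoters for 4. The steps ran in limma 3.58.1 (R 4.3.3), pandas 2.3.3 and Biopython 1.88 (Python 3.11.15) and were tested on simulated data. The alternatives were normexp background correction, quantile normalization, the deposited ratios, outlier spots kept, dim signals as given, the untreated array as control, other filters and a 4-fold threshold.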

Additional observations from a re-analysis of the deposited data

How the results depend on the processing

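No paired analysis was possible because the 4 conditions were measured once, and for that reason no replicate could be left out. With normexp background correction, 3 of the 5 chosen probes were over 2-fold higher at 72 h and 3 at 48 h, Aspa (0.58 and 0.63 on the log2 scale) and Olfr390 falling short. That setting gave 416 probes higher at 72 h and 449 at 48 h over all probes, 195 apart between control siRNA and untreated cells and 84 between the Rif1 siRNA arrays. Other receptor probes were then 6 higher and 16 lower at 72 h, and 7 higher and 14 lower at 48 h, and 0 neighbors were higher at 48 h. Quantile normalization left 1 such neighbor. With dim signals taken as given, 1264 probes were higher at 72 h, 1396 at 48 h and 977 apart between the controls. Neighbors were then 4 higher and 21 lower at 72 h and 24 lower at 48 h, other receptor probes 68 higher and 630 lower at 72 h and 66 and 635 at 48 h. Of the N-acetylaspartate genes 1 probe was lower at each time, and of the olfactory signaling genes 2 were higher and 1 lower. Without the filter, 705 probes were apart between the Rif1 siRNA arrays. Among probes bright on both arrays, 515 were higher at 72 h, 571 at 48 h and 224 apart between the controls. With a 4-fold threshold over all filtered probes, these counts were 358, 374 and 129, with 91 between the Rif1 siRNA arrays. With untreated cells as control, 4 of the 5 were over 2-fold higher at 48 h. Aspa between control siRNA and untreated cells turned from 0.02 to -0.05 with normexp, and no other log2 difference of the 5 genes turned its direction. The balance of counts did turn. Neighbors at 48 h went from 2 higher and 0 lower to 2 and 24 with dim signals as given. Other receptor probes at 72 h went from 21 higher and 29 lower to 17 and 5 among probes that passed the filter. The cause of these shifts was not tested. Depth is limited by the signal over background, which differed between the arrays.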
